A study of Mus musculus with 8 samples.

Results

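Total RNA of EGFP-sorted hindlimb cells from E12.5 mouse embryos carrying the wildtype reporter allele of Bapx1 (Nkx3-2) was profiled on 4 Illumina whole-genome mouse BeadChips, which are 4 of the 8 arrays of the series. The arrays were chosen by their titles alone, as wildtype replicates 1 to 4, and the 4 arrays of Bapx1 null cells were not compared with them. The strain was C57BL/6J;129. In the wildtype allele EGFP is joined through an internal ribosomal entry site to the 3' UTR of Bapx1, so the Bapx1 coding sequence is kept and EGFP follows Bapx1 transcription, and the study writes this line as heterozygous, Bapx1 +/tm2.Tlu. The study treats its arrays as biological replicates, but the number of embryos behind each one was not stated, so the spreads below are those between these 4 arrays and may be technical in part.

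Bapx1 is a homeobox gene of the NK family that is switched on in mesenchyme which will form cartilage. In the limb, mesenchymal cells condense under the control of Sox9, become chondrocytes that secrete type II and type IX collagen with the help of Sox5 and Sox6, and later enlarge into hypertrophic cells that make type X collagen. At this stage the hindlimb also holds precursors of joints, tendons and connective tissue, muscle that has moved in from the somites, vessels, nerve fibres, blood cells and the covering ectoderm.

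A probe was called detected on an array where its detection p-value, taken as 1 minus the deposited score, lay under 0.05, and a gene was read by its brightest probe. Levels are background-corrected, quantile normalized log2 intensities, and ± gives the SD over the 4 arrays. By this rule 9748 of 19057 genes (51.2%) were detected on all 4 arrays, 1846 (9.69%) on 1 to 3 arrays and 7463 (39.2%) on none. Of 45281 probes 16600 (36.7%) were detected on all 4 arrays and 23555 (52%) on none. Olfactory receptors, which limb cells are not known to use, gave 8 of 1071 (0.747%), and their brightness percentiles lay between 0.2 and 13.7. The brightness percentile is the place of a gene among the 9748 detected ones, with 100 at the top. It orders the signals of probes, which bind with unequal strength, and not the amounts of transcript of different genes. Probes for 1 gene also differed. Of 9172 genes with several probes, 3301 held a probe detected on all 4 arrays beside another detected on none. Sdha, a subunit of the respiratory chain that cells in general use, was read by 1 probe and detected on no array. A gene not detected here is therefore one whose probes were not above background, and its transcript may still have been present.

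The arrays detected between 18375 (replicate 4) and 19861 (replicate 1) probes, and the lowest level counted as detected was between 5.03 and 5.20. Across the 16600 probes detected on all 4 arrays, which are not independent replicates, Pearson's r between arrays was 0.988 for replicates 1 and 3 and 0.960 for replicates 1 and 4. Replicates 2 and 4 gave 0.967 and replicates 3 and 4 gave 0.973, so the 3 lowest correlations were those of replicate 4. Replicate 2 stood apart in Y-linked and endothelial genes, as described below.

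The gene that drove the sort was not read. Nkx3-2 has 2 probes here, and neither was detected on any array. The brighter one had a level of 4.67, 4.54, 4.45 and 4.41 on replicates 1 to 4, and the other 4.38, 4.50, 4.46 and 4.37. All 8 readings lay below the detection limit of their array, so the arrays give no level of Bapx1 itself in cells sorted on its reporter. Where these probes lie relative to the inserted cassette was not tested.

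Several cartilage genes were among the brightest signals. Sox9, the master regulator of chondrocyte fate, had levels of 14.19, 14.52, 14.20 and 14.16 and rank 25 of the 9748 genes, above every other member of the Hox, Sox, T-box, Pax, Nkx, forkhead and Gata families measured (51 of 140 detected on all 4 arrays). Col2a1, the main collagen of cartilage, had levels of 13.97, 13.59, 13.66 and 13.43 and rank 67, and all 3 of its probes were detected on every array. Wwp2, a ubiquitin ligase gene whose intron hosts a cartilage microRNA, had levels of 12.91, 12.96, 12.67 and 12.90 (rank 191). Col9a1, a chain of the type IX collagen that sits on type II fibrils, had 12.89, 12.54, 12.69 and 12.80 (rank 228). Sox5, a partner of Sox9 at cartilage genes, had 11.91, 12.58, 12.60 and 12.501 (rank 335). Sox5 was thus lower on replicate 1 than on the other 3 arrays. Of the 6 Sox5 probes 5 were detected on all 4 arrays, and the second brightest gave 8.74, 11.14, 9.47 and 10.52, a spread of 1.07 that the brightest probe did not show. Probes of the other genes differed as well. The second Sox9 probe gave 11.22, 11.67, 10.57 and 10.28 (SD 0.63), and the dimmer Col2a1 probes had SDs of 0.41 and 0.36. The second brightest probes of Wwp2 and Col9a1 stood at 11.05 ± 0.20 and 8.24 ± 0.29. Wwp2 and Col9a1 also had probes detected on no array.

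Of the 11 measured regulators of cartilage, 9 were detected on all 4 arrays (81.8%, against 51.2% of all genes), and their median percentile was 88.7. Foxc1 and Foxc2, forkhead genes of the condensing mesenchyme, stood at 11.23 ± 0.42 and 11.18 ± 0.25. Trps1, a zinc-finger repressor named for a human skeletal syndrome, stood at 11.06 ± 0.11, and Zfp219, a Sox9 cofactor, at 10.36 ± 0.70. Sox6, which acts with Sox5, read 6.02, 8.46, 7.75 and 7.72, and only 1 of its 5 probes was detected on all 4 arrays. Arid5b, another Sox9 cofactor, was detected on 3 arrays.

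Genes of the cartilage matrix were read in part. Among the 20 measured, 11 were detected on all 4 arrays (55%, near the 51.2% of all genes), 5 on 1 to 3 arrays and 4 on none. Beside Col2a1 and Col9a1, the members of highest brightness percentile were Col9a2 (12.19 ± 0.15), the matrilin Matn4 and Papss2, which makes the sulfate donor for chondroitin chains (11.15 ± 0.17). Matn4 varied the most of these, with 11.29, 12.57, 11.05 and 11.93. The 6 other detected members had percentiles from 7.9 to 27.3. They included Acan, the large aggregating proteoglycan of mature cartilage, at 6.65, 6.61, 5.70 and 6.14, and Hapln1, which links it to hyaluronan, at 5.77, 6.60, 6.21 and 5.52. Comp, a binding protein of collagen fibrils, had 6.38 ± 0.17, and Matn1 had 5.95, 7.51, 6.87 and 7.72. Matn3, Epyc, Cnmd (chondromodulin) and Ucma were detected on no array, and Col11a1 and Col9a3 on 3.

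RefSeq promoters (GRCm38.p6, 250 bases before to 50 after each start) were at hand for 7949 of the 9748 detected genes. The short binding word known for Bapx1 has a pair of forms. The first form is TGAGTG, and it reads as CACTCA when it lies on the other strand. The second form has TAAGTG, which in the same way becomes CACTTA there. Either form was found, on either strand, in 23.9% of all promoters, in 18.7% of those of genes detected on all 4 arrays and in 25.8% of those of genes detected on none. Among the cartilage regulators 4 of 11 promoters, which belong to 5 genes, held it (36.4%). Among cartilage matrix genes it was 1 of 12 promoters, which belong to 9 genes (8.33%). Sox6 held the word in separate promoters, so these are counts of promoters and not of genes, and they rest on few promoters. A window upstream of the start is shown for 3 of these genes, with the word in capitals.
Sox5 (chr6:143947116-143947145, minus strand): aatgtcacagacTAAGTGacttaggcaaca
Matn4 (chr2:164405201-164405230, minus strand): ttttcttttcttTGAGTGtagcacgggtca
Zfp219 (chr14:52019784-52019813, minus strand): agcgcctggcgtCACTCAgcagatgcacag
A match of letters is a description and says nothing of binding.

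Of 14 measured genes of later cartilage and bone, 4 were detected on all 4 arrays (28.6%, against 51.2% of all genes), 4 on 1 to 3 arrays and 6 on none, and none stood in the brightest 10%. Col10a1, the collagen of hypertrophic chondrocytes, and the bone matrix genes Ibsp, Bglap and Dmp1 were detected on no array. Ihh, the hedgehog ligand of prehypertrophic cells, was detected on 2 arrays, and Mmp13, a collagenase of terminal chondrocytes, on 1. Sp7, a regulator of osteoblasts, was detected on all 4 arrays by 1 of its probes at 7.87, 8.49, 7.96 and 8.49, while its other probe was detected on none. Alpl, the alkaline phosphatase of mineralizing cells, lay at the limit with 5.29 ± 0.17 (percentile 0.4).

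**Figure D1:**
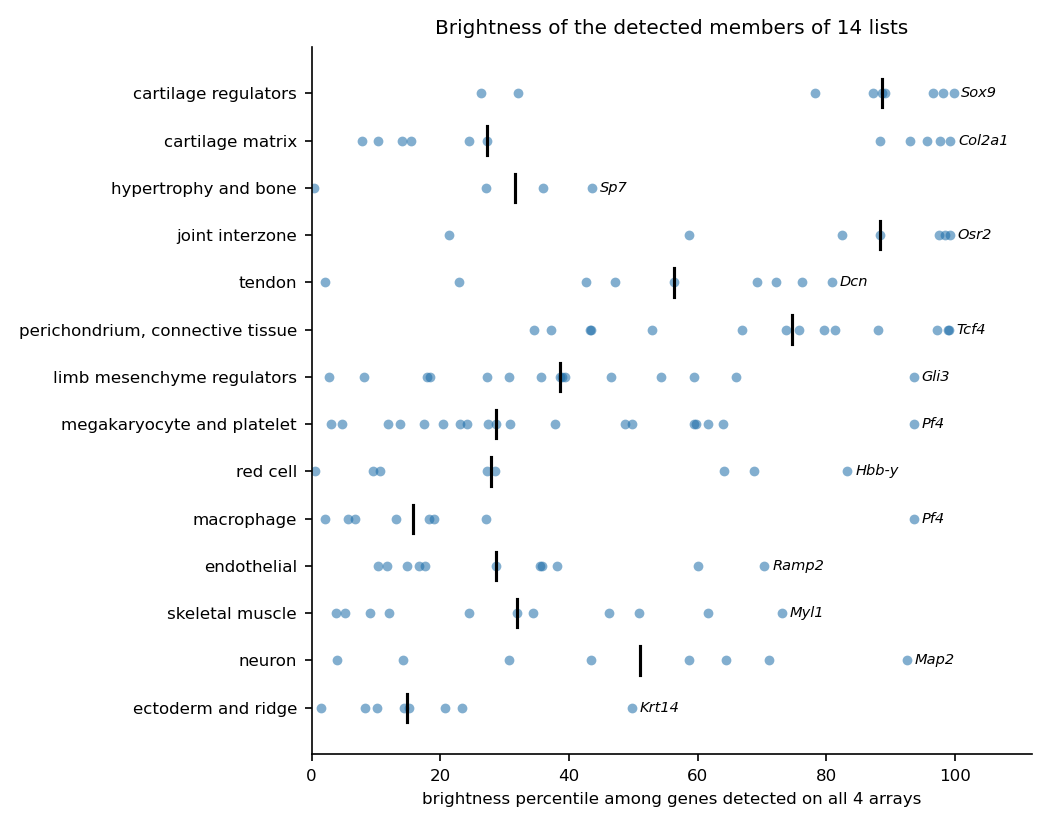
Brightness percentile (x axis, place among the 9748 genes detected on all 4 wildtype arrays) of each detected member of 14 gene lists, 1 point per gene, with the median as a bar and the brightest member named. Cartilage regulators and joint genes have medians of 88.7 and 88.3. Cartilage matrix genes have a median of 27.3, with 4 members in the brightest 10%. Ectoderm, macrophage and platelet genes have medians of 14.8, 15.7 and 28.7 and at most 1 member in the brightest 10%.

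Other skeletal and connective lineages were also read. Perichondrium and connective tissue had 14 of 15 measured genes on all 4 arrays (93.3%, against 51.2% of all genes). Their median percentile was 74.8. Pdgfra (13.35 ± 0.13), a receptor for platelet-derived growth factor on mesenchyme, and the fibrillar collagen chain Col5a1 (12.56 ± 0.13) were among its brightest members. Tcf7l2, whose product is the limb connective tissue marker often called TCF4, read 10.63, 10.79, 10.17 and 10.25. The list also held the gene Tcf4, a different factor of the basic helix-loop-helix family, at 13.44 ± 0.26, and without it 13 of 14 genes (92.9%) were detected with a median percentile of 73.7. Col1a1 and Col1a2, the chains of type I collagen, stood at 8.18 ± 0.21 and 9.63 ± 0.73. Col1a2 read 10.26, 8.76, 10.19 and 9.30, higher on replicates 1 and 3. Fn1, fibronectin, ran from 9.73, 9.39 and 8.75 on replicates 1 to 3 down to 7.33 on replicate 4.

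Joint genes gave 7 of 13 on all 4 arrays (53.8%), near the 51.2% of all genes, but 3 of them were in the brightest 10%. Osr2, an odd-skipped zinc-finger gene of developing synovial joints, had levels of 13.39, 13.73, 13.44 and 13.44 (rank 82), and Sfrp2, a secreted Wnt antagonist, 13.18, 12.86, 12.91 and 13.16 (rank 152). Gdf5, the growth factor that marks the interzone, was detected by both probes, the brighter at 11.05, 10.75, 10.53 and 10.37 (rank 1709). At percentile 82.5 Gdf5 lay outside the brightest 10%. Gdf6, Wnt9a, Erg and Chrdl2 of the same list were detected on no array. For tendon, 9 of 12 genes were detected on all 4 arrays (75%), none of them in the brightest 10%. Scx, the regulator of tendon progenitors, read 9.92, 9.65, 9.82 and 9.73, and Mkx, a homeobox gene of later tendon, 8.14 ± 0.12. The small proteoglycans Dcn, Bgn and Lum lay between 9.96 and 10.55, and Tnmd, a marker of differentiated tenocytes, was detected on no array.

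Genes of hindlimb identity gave 5 of 6 on all 4 arrays (83.3%) and those of forelimb identity 1 of 4 (25%), against 51.2% of all genes. The detected member of the forelimb list was Hoxc6, at 9.85 ± 0.22 (percentile 70.3). Tbx4, the T-box gene of the hindlimb, was detected by both probes, the brighter at 12.01, 11.75, 11.996 and 11.82 (rank 559). The dimmer Tbx4 probe stood at 7.07 ± 0.40. Tbx5, the forelimb counterpart of Tbx4, read 4.42, 4.67, 4.51 and 4.60 and was detected on no array by either probe. Isl1, which acts upstream in the hindlimb field, stood at 8.19 ± 0.22. Pitx1, the homeobox gene that sets hindlimb character, read 5.73, 6.80, 5.77 and 5.94 from its only probe here, and replicate 2 was the high array.

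Hox genes are laid out in 4 clusters, and cells further along the trunk and limb axes use genes of higher paralog number. On all 4 arrays 7 of 10 measured HoxA, 0 of 10 HoxB, 3 of 9 HoxC and 6 of 9 HoxD genes were detected. These shares were 70%, 0%, 33.3% and 66.7%, against 51.2% of all genes. Hoxd10 had the highest brightness rank, with 11.69, 11.71, 11.67 and 11.78 (rank 676). Hoxc6 (9.85 ± 0.22), Hoxa11 (9.60 ± 0.44), Hoxc10 (9.46 ± 0.38), Hoxd12 (9.29 ± 0.13) and Hoxd8 (9.24 ± 0.19) followed. Hoxa13, which marks the hand and foot plate, read 8.78, 8.38, 8.77 and 7.86 and all 3 of its probes were detected, while Hoxd13 was detected on 3 arrays. Hoxd4 read 6.64, 8.59, 7.21 and 8.72, higher on replicates 2 and 4. Of the HoxB cluster, Hoxb2 was detected on 1 array and Hoxb7 on 2. Hoxc11 and Hoxa10, genes of the hindlimb level, were detected on no array.

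**Figure D2:**
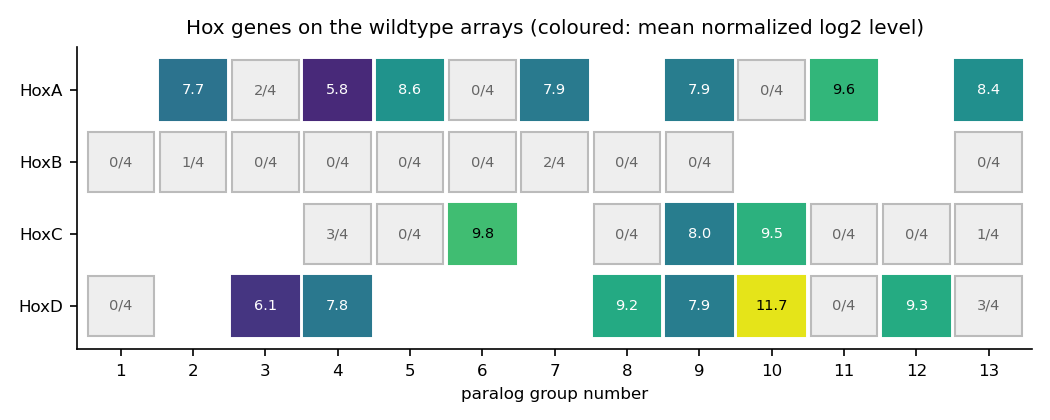
Hox genes by cluster (rows) and paralog group number (x axis). Coloured cells give the mean normalized log2 level over the 4 wildtype arrays for genes detected on all 4, grey cells the number of arrays of 4 with detection, and empty positions were not analysed here. Detected genes lie in HoxA, HoxC and HoxD, with Hoxd10 the brightest at 11.7, and no HoxB gene was detected on all 4 arrays.

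Regulators of limb mesenchyme had 15 of 25 on all 4 arrays (60%, against 51.2% of all genes) and 8 on none. Gli3, the hedgehog effector that patterns the digits, had 11.83, 11.97, 11.69 and 11.65 (rank 628) and was the only one in the brightest 10%. Sall1 (8.88 ± 0.45) and Sall3 (9.57 ± 0.21), spalt zinc-finger genes, Tbx15 (9.16 ± 0.82) and Tbx18 (8.40 ± 0.21) followed. Prrx1, a homeobox gene of early limb mesenchyme, stood at 7.21 ± 0.25 and Msx1, used in the undifferentiated progress zone, at 7.41 ± 0.07, while Msx2, Dlx5, Dlx6 and Alx1 were detected on no array. Among genes of the proximal limb, Meis2 (10.29 ± 0.14), Pbx2 (9.19 ± 0.26) and Meis1 (8.89 ± 0.35) were detected on all 4 arrays.

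Bapx1 is also known to act in the spleen and the vertebral column, and genes of both were read. Of 11 genes of the spleen and gut mesoderm, 3 were detected on all 4 arrays (27.3%), namely Foxf2, Nr2f2 and Gata6, and the spleen regulators Tlx1, Nkx2-5, Pdx1 and Barx1 on none. Sclerotome and vertebral column genes gave 6 of 11 on all 4 arrays (54.5%, against 51.2% of all genes) and 5 on none. The 6 were Foxc2, Meox2 (10.94 ± 0.21), Meox1 (7.79 ± 0.07), Tbx18, Tbx6 (6.84 ± 0.47) and Chad (5.84 ± 0.42), of which the limb is also known to use Meox2 and Tbx18. The 5 were Pax1, Pax9 and Uncx, which work in the sclerotome, Noto of the notochord and Shh. None of the 9 measured Pax genes was detected on any array. No member of the Nkx family was detected on all 4 arrays (0 of 12).

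**Figure D3:**
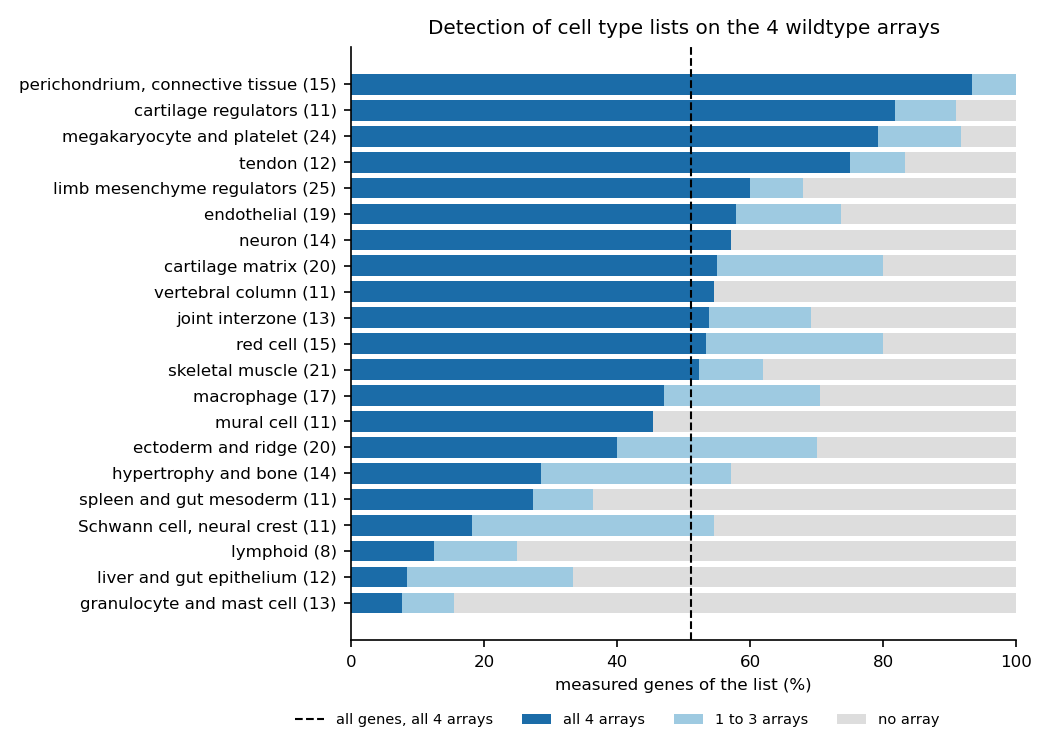
Share of the measured genes of 21 cell type lists (number measured in brackets) detected on all 4 wildtype arrays, on 1 to 3 arrays or on none (x axis, %), with the 51.2% of all genes as a dashed line. Perichondrium, cartilage regulators, platelet and tendon genes lie furthest above the line, and lymphoid, liver and granulocyte genes furthest below it.

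Genes of other cell types were read as well, and in RNA from a whole sort fewer cells of a type and less RNA per cell cannot be told apart. Megakaryocyte and platelet genes gave 19 of 24 on all 4 arrays (79.2%, against 51.2% of all genes) with a median percentile of 28.7. Pf4, a chemokine of platelet granules that some macrophages also make, was alone in the brightest 10%, with 11.69, 11.63, 11.86 and 12.002 (rank 619). The platelet tubulin Tubb1 (9.45 ± 0.17), the lipoxygenase Alox12 (9.32 ± 0.17), the chemokine Ppbp (9.16 ± 0.32) and the surface glycoproteins Gp5 (8.61 ± 0.09), Itga2b (6.52 ± 0.14) and Gp9 (6.13 ± 0.47) were further members. The list moved little between arrays. The mean deviation of its detected members from their own means was -0.12 on replicate 1 and 0.12 on replicate 4, and smaller on the others. Itgb3, the partner chain of Itga2b, was detected on 1 array, and Gata1, which drives megakaryocytes and red cells, on none.

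Red cell and megakaryocyte genes are known targets of GATA factors, whose core word is AGATAA, and this word reads as TTATCT when it lies on the other strand. The word was found on either strand in 6 of 17 promoters of the detected platelet genes (35.3%). It was found in 0 of 6 promoters of the detected red cell genes. The share was 5.9% for all genes detected on the 4 arrays, 14.6% for genes detected on no array and 11.2% over all promoters. Olfactory receptors gave 27.9% and the detected neuron genes 3 of 9 promoters, which belong to 5 genes (33.3%). The list counts rest on few promoters, and the word was not particular to platelet genes. Windows of 30 bases around it, each read along the gene's strand with the word in capitals, are shown for the platelet genes with the word upstream of the start, because platelet genes had the largest detected share of the blood cell lists.
Gp6 (collagen receptor, chr7:4397871-4397900, minus strand): gctggcaagaagAGATAAgtggtggcttta
P2rx1 (ATP receptor, chr11:72998895-72998924, plus strand): cagtagctTTATCTctggccctgtggctgg
F2rl2 (thrombin receptor family, chr13:95696813-95696842, plus strand): ggggtgaggaagAGATAAaagggatatggc
Gp5 (glycoprotein V, chr16:30310857-30310886, minus strand): tttcttgactttTTATCTggtaaggtcttt
Gp5 (second word, chr16:30310841-30310870, minus strand): ctggtaaggtctTTATCTtgaggatgcaag
Mpig6b (immune receptor of platelets, chr17:35066255-35066284, minus strand): tcacactcgctcTTATCTgagcccccagtc

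In Gp5 the words begin at positions -93 and -77 from the start. The levels of these genes ran from 5.51 ± 0.06 for Gp6 to 8.61 ± 0.09 for Gp5, and Gata1 was detected on no array. Gata2, a GATA factor of blood progenitors and megakaryocytes that other cells also use, was detected on all 4 arrays with 5.70, 6.43, 6.21 and 6.49.

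Red cell genes gave 8 of 15 on all 4 arrays (53.3%, near the 51.2% of all genes). The brightest was the embryonic globin Hbb-y with 10.28, 11.35, 10.55 and 10.76, highest on replicate 2. Hba-a1 followed with 9.71, 10.29, 9.52 and 9.49. The regulator Klf1 lay at the detection limit (5.32 ± 0.23), and Alas2, the haem synthesis enzyme of red cells, was detected on no array. Macrophage genes gave 8 of 17 (47.1%, below the share of all genes), Pf4 included. Apart from Pf4 the brightest was Lyz2, lysozyme, with 6.66, 7.13, 7.32 and 7.67. Csf1r, the receptor that macrophages need, had 6.21 ± 0.33 and Adgre1 (F4/80) 6.64 ± 0.53. Ptprc (CD45), the common marker of white blood cells, read 4.46, 4.48, 4.46 and 4.78 and was detected by none of its 4 probes, and Spi1 was not detected either. Granulocyte and mast cell genes gave 1 of 13, which was Kit, the stem cell factor receptor that melanoblasts also carry (9.04 ± 0.13). Lymphoid genes gave 1 of 8, Rag1 at 5.42 ± 0.13, a call lost at a detection p under 0.01.

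Endothelial genes varied together. Of 19 measured, 11 were detected on all 4 arrays (57.9%, against 51.2% of all genes), and Kdr, Flt4 and Prox1 on none. Plvap, the protein of vessel diaphragms, read 5.63, 8.35, 5.73 and 6.16, and Cdh5, the cadherin of endothelial junctions, 6.52, 8.46, 7.11 and 7.07. Flt1, a receptor for VEGF, read 5.20, 7.76, 5.88 and 6.52, and Cldn5, a tight junction protein of vessels, 5.05, 7.26, 5.94 and 6.22. Replicate 2 was the highest array for each of these 4 genes and replicate 1 the lowest. Over the 11 detected genes the mean deviation was -0.70, 0.90, -0.24 and 0.04 on replicates 1 to 4, and the median SD was 0.83, against 0.20 for all detected genes. Ramp2 (9.87 ± 0.18) and Sox18 (7.70 ± 0.14) of the same list did not follow. Among mural cell genes, which wrap vessels, Pdgfrb read 8.50, 7.62, 8.40 and 8.24, and the list had mean deviations between -0.04 and 0.05.

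**Figure D4:**
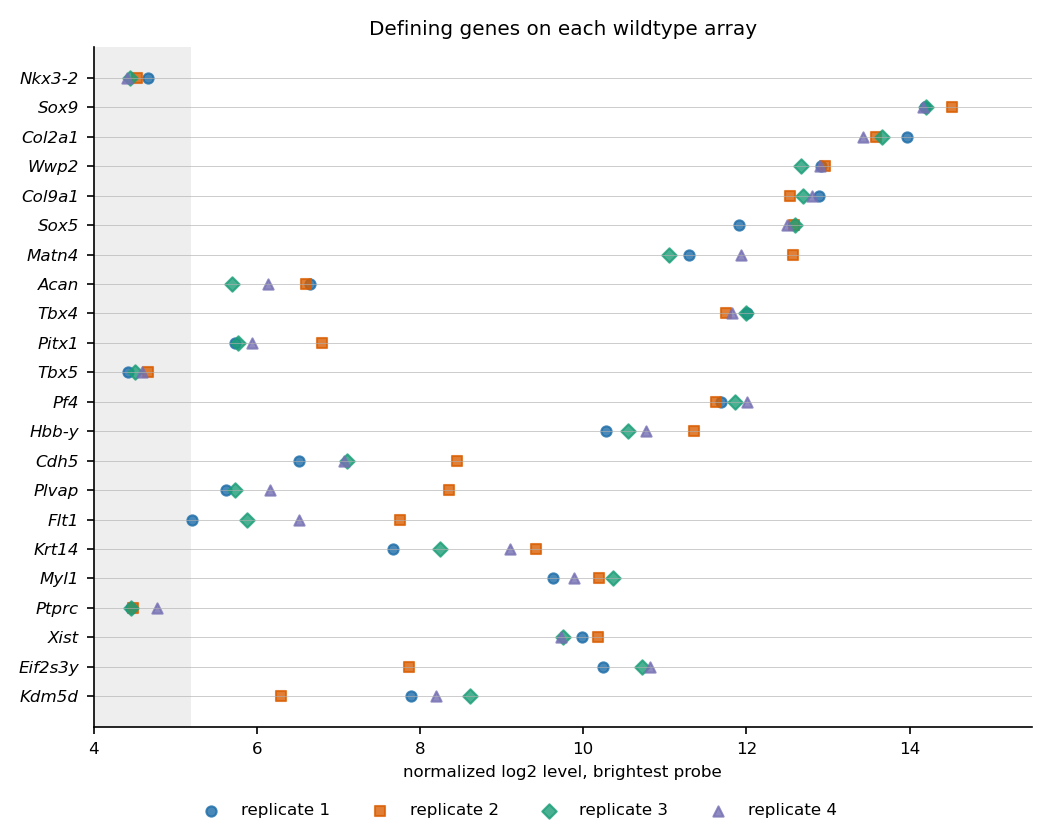
Normalized log2 level (x axis) of the brightest probe of 22 defining genes on each of the 4 wildtype arrays, with a symbol per replicate and the range up to the highest of the 4 detection limits (5.20) shaded. By their brightest probes Sox9, Col2a1, Wwp2, Col9a1 and Tbx4 lie far to the right with narrow spread. Their other detected probes, not drawn, were dimmer and had larger SDs. Sox5 and Matn4 are spread wider (SD 0.33 and 0.68), and Acan lies near the shaded range (6.27 ± 0.45). Nkx3-2, Tbx5 and Ptprc lie in the shaded range, and replicate 2 is high for Plvap, Flt1 and Cdh5 and low for Eif2s3y and Kdm5d.

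Muscle was read through contractile genes and not through its early regulators. Of 21 genes 11 were detected on all 4 arrays (52.4%, near the 51.2% of all genes). The myosin light chain Myl1 read 9.63, 10.20, 10.37 and 9.88, cardiac actin Actc1, which embryonic muscle also uses, 9.32 ± 0.32, and slow troponin Tnnt1 8.68 ± 0.33. Myog was detected on 3 arrays, and Myod1, Myf5, Myf6, Pax3 and Pax7 on none. The list was lowest on replicate 1, with mean deviations of -0.37, 0.08, 0.27 and 0.02.

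Genes of nerve, glia and ectoderm were read in part, and each share stands beside 51.2% of all genes. The neuronal genes Map2 (11.64 ± 0.11), Nefm (9.90 ± 0.10), Gap43 (9.48 ± 0.18) and Dcx (9.12 ± 0.24) were among 8 of 14 detected on all 4 arrays (57.1%), while Tubb3, Elavl3 and Syt1 were detected on none. Of Schwann cell and neural crest genes Sox10 (8.25 ± 0.39) and Ednrb (9.08 ± 0.33) were detected, and these were 2 of 11. Ectodermal genes gave 8 of 20 (40%). Krt14, a keratin of basal epidermis, read 7.68, 9.43, 8.24 and 9.10, higher on replicates 2 and 4, and Krt17 followed the same order with 7.06, 9.12, 7.63 and 8.60. Cdh1 stood at 6.01 ± 0.46, Epcam was detected on no array, and Fgf8, the growth factor of the ridge, was detected on 3. Liver and gut epithelium gave 1 of 12, the thyroxine carrier Ttr with 9.55, 9.74, 9.24 and 9.27, while Alb, Afp and Apoa2 were detected on no array.

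Signalling genes of the limb were read next, and each share stands beside 51.2% of all genes. Of 32 genes of BMP and TGF-beta signalling 23 were detected on all 4 arrays (71.9%). The receptors Tgfbr1 (12.74 ± 0.08), Bmpr1a (12.12 ± 0.07), Bmpr2 (11.92 ± 0.09) and Tgfbr2 (11.67 ± 0.13) were in the brightest 10%, and Bmpr1b, the receptor that Gdf5 prefers, stood at 10.90 ± 0.21. Among ligands Bmp4 (8.84 ± 0.11), Bmp7 (7.96 ± 0.27) and Bmp5 (5.69 ± 0.11) were detected, and Bmp2, Bmp6 and Tgfb1 on no array. The target Id1 had 10.63 ± 0.08. Of the secreted antagonists, noggin (Nog) stood at 6.59 ± 0.29, Chrd at 8.78 ± 0.26 and Grem1 at 5.43, 7.20, 6.01 and 7.63, the last with replicates 2 and 4 above 1 and 3.

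For hedgehog, Gli2 (12.32 ± 0.07), Gli3, the receptor Ptch1 (9.08 ± 0.32) and the transducer Smo (9.85 ± 0.24) were among 6 of 13 detected on all 4 arrays (46.2%), and the ligands Shh and Dhh and the target Gli1 were detected on none. In FGF signalling 12 of 18 were detected (66.7%). Fgfr2, the receptor of condensing mesenchyme, read 13.46, 13.45, 13.44 and 13.34 (rank 89), whereas Fgfr1 read 6.37, 5.84, 5.68 and 5.21 from 1 of its 2 probes and Fgfr3, the receptor of proliferating chondrocytes, was detected on 2 arrays. Dusp6, a phosphatase induced by FGF, stood at 11.16 ± 0.29 and the mesenchymal ligand Fgf10 at 8.88 ± 0.12. Of 35 Wnt genes 19 were detected (54.3%). Wnt5a, which shapes limb outgrowth, stood at 11.47 ± 0.27, the receptor Fzd7 at 10.99 ± 0.30, the feedback gene Axin2 at 8.62 ± 0.07 and the antagonist Frzb, made by early cartilage, at 8.85 ± 0.17, while Lef1 was detected by none of its 4 probes. Retinoid genes gave 8 of 16 (50%), led by the binding proteins Crabp1 (10.41 ± 0.14) and Crabp2 (9.68 ± 0.20) and the receptor Rxrb. Notch genes gave 7 of 14 (50%), led by Notch1 (10.36 ± 0.24) and Hey1 (10.36 ± 0.09).

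The brightest signals came from translation, mitochondria and fetal growth genes. The top 20 were Eef1a1, Igf2, CYTB, Cdkn1c, Rpl41, ND4, Rps29, Mdk, Ubb-ps, Gm6548, Nrep, Rps12, Rpl38, Rpl37, ND1, Hmgn2, Ddx17, Rps24, Rpl9 and Rpl23, with a median SD of 0.088. Among the top 100 there were 24 ribosomal protein genes and 5 of the mitochondrial genome. Ribosomal protein genes gave 57 of 62 on all 4 arrays (91.9%, against 51.2% of all genes), with a median percentile of 98.2. Mdk, midkine, is a growth factor of embryonic mesenchyme, and its level was 14.82 ± 0.06.

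Imprinted genes of fetal growth and their IGF partners, listed together, gave 13 of 15 on all 4 arrays (86.7%, against 51.2% of all genes). Of these, 8 were in the brightest 10%. Meg3 and Plagl1 of this list, with 3 probes each, were detected on no array. Igf2, the fetal growth factor, read 15.09, 15.09, 15.12 and 15.20 (rank 2), and Cdkn1c (p57), the inhibitor of cell division that chondrocytes need in order to mature, 14.98, 15.17, 15.09 and 15.002 (rank 4). Grb10 (14.02 ± 0.05), Mest (13.66 ± 0.09), the IGF partner Igfbp5 (13.26 ± 0.20) and Dlk1 (12.99 ± 0.12) followed, and Igf1 stood at 5.67 ± 0.34. The other 5 detected inhibitors of cyclin-dependent kinases had percentiles from 8.0 to 21.3, among them Cdkn1a (p21) at 5.85 ± 0.30 and Cdkn1b (p27) at 5.85 ± 0.59.

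Genes of dividing cells were read beside Cdkn1c, and each share here stands beside 51.2% of all genes. Of 22, 18 were detected on all 4 arrays (81.8%), among them the centromere histone Cenpa (12.67 ± 0.07), cyclin D1 (Ccnd1, 12.47 ± 0.14), the replication factor Mcm5 (12.02 ± 0.18) and Top2a with 10.52, 10.09, 10.51 and 9.20. Glycolysis and hypoxia genes gave 15 of 19 (78.9%), 7 of them in the brightest 10%, such as Tpi1 (12.89 ± 0.13), Ldha (11.88 ± 0.14) and Vegfa (11.34 ± 0.07). Immediate early genes, which cell dissociation is known to induce, gave 10 of 20 (50%, near the share of all genes). Jun stood at 10.67 ± 0.11, Dusp1 at 10.17 ± 0.08 and Fos at 7.61, 7.21, 8.45 and 6.80. Myc, Fosb, Egr2, Ier2, Btg2 and Nr4a1 were detected on no array. Classical cadherins differed by member. Cdh3 stood at 10.10 ± 0.18 with all 4 probes detected, Cdh11 of mesenchyme at 6.11 ± 0.50, and Cdh2, N-cadherin of condensations, was detected by neither probe. Ncam1, another adhesion molecule of condensations, read 9.74, 11.29, 9.75 and 11.86, higher on replicates 2 and 4.

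After quantile normalization the median SD of the 9748 detected genes was 0.204 on the log2 scale, a factor of 1.15, with quartiles of 0.133 and 0.302. This value rests on the normalization. With scaling by the median absolute deviation, the kind of scaling the methods name, the median SD was 0.754. That scaling moved the median of detected genes by -0.56, -0.36, -0.16 and 1.05 on replicates 1 to 4. A shift of a whole array enters the SD of each gene. In 10 classes of brightness of about equal size the median SD was 0.238 in the dimmest, 0.286 in the next and 0.124 in the brightest. An SD above 1 was found in 44 genes (0.451%), in 2299 under that scaling and in 81 without replicate 3. The 10 with the smallest SD in the upper range of brightness were Cops4, Ttc3, Lyrm2, Kctd6, Cep120, Gab1, Uqcc2, Afdn, Tent4a and Ints14, from 0.010 to 0.019, and quantile normalization gives some of their readings identical values.

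**Figure D5:**
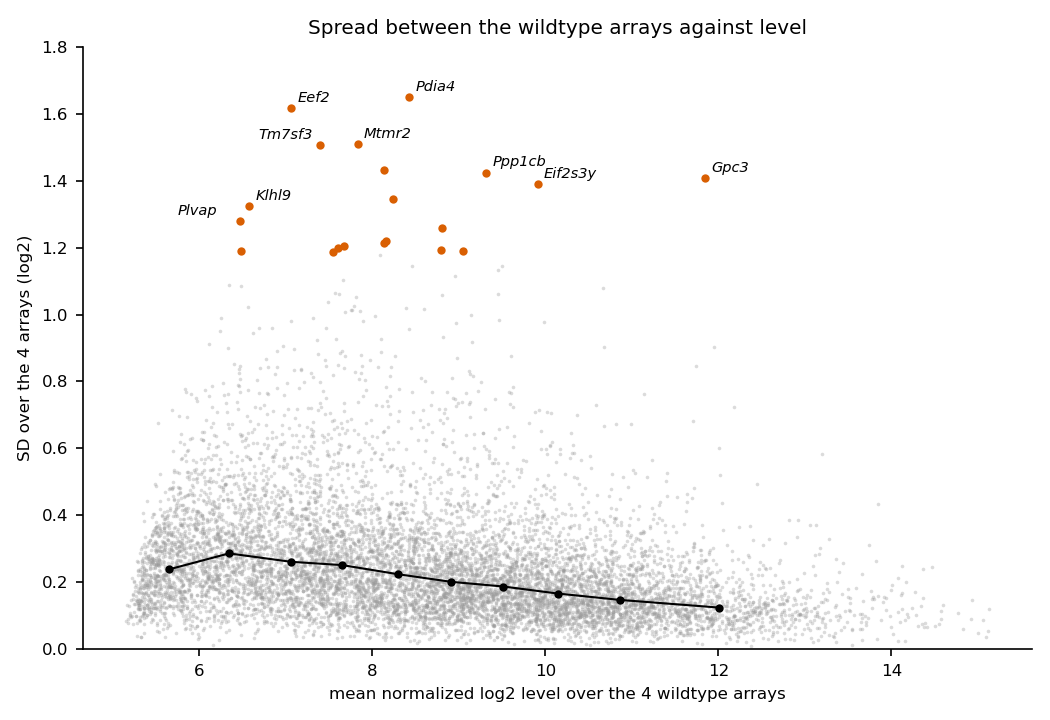
SD over the 4 wildtype arrays (y axis, log2) against the mean normalized log2 level (x axis) for the 9748 genes detected on all 4, 1 grey point per gene, with the median of each of 10 classes of brightness as a line and the 20 genes of largest SD in orange, 9 of them named. The line rises from 0.238 to 0.286 and then falls to 0.124, and Gpc3 is the brightest of the 20.

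The 20 genes of largest SD followed a few array patterns. Eef2, a translation elongation factor, read 8.40, 8.50, 5.44 and 5.89, and its other probes, each detected on 2 arrays, were also higher on replicates 1 and 2. Mtmr2, a lipid phosphatase, read 8.57, 9.60, 6.51 and 6.65. The disulfide isomerase Pdia4 with 8.38, 10.77, 7.14 and 7.41, Arhgap35 with 8.27, 10.10, 6.88 and 7.31 and Mlh3 with 7.05, 7.87, 5.28 and 5.74 were likewise higher on replicates 1 and 2 than on 3 and 4.

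Replicate 4 was the low array for another set. Rbbp7, a histone-binding protein, read 9.82, 9.53, 9.56 and 7.27, and 2 further probes gave the same order of highest and lowest array, whereas its dimmest detected probe read between 6.93 and 7.03 on all 4 arrays. Ppp1cb, a catalytic subunit of protein phosphatase, read 10.34, 10.27, 9.35 and 7.29 and its second probe 10.21, 9.96, 9.28 and 7.23. Hif1a (9.05, 8.36, 8.77 and 6.37), the chaperone Calr (8.50, 8.33, 7.73 and 5.88), Tsc22d1 (9.72, 9.67, 8.59 and 7.18) and Rab6a (7.88, 8.42, 8.07 and 5.79) shared the low replicate 4. The other detected probes of Rab6a did not, and had replicate 4 as their highest array.

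Replicate 2 was the high array for Gpc3, a glypican that restrains fetal growth, with 10.75, 13.92, 11.33 and 11.40 from the brightest probe and 9.66, 13.57, 10.73 and 10.73 from the second, while its remaining probe was detected on no array. Klhl9 (6.13, 8.49, 6.24 and 5.43) and Plvap shared this. Replicates 2 and 4 stood above 1 and 3 for Foxn3 (7.25, 9.85, 7.02 and 8.83), Rai1 (6.53, 9.18, 7.93 and 9.01, an order its second probe did not follow) and the acetyltransferase Crebbp (6.19, 8.997, 7.31 and 8.21, with a second probe in the same order). Nr2f2, a nuclear receptor of vessels and mesenchyme, was low on replicate 1 (6.96, 9.45, 9.10 and 9.71), and Tm7sf3 was low on replicates 2 and 3 (8.46, 5.94, 6.28 and 8.92).

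Across the 200 genes of largest SD, the array furthest from the mean of the other 3 was replicate 4 below the rest in 71, replicate 2 above the rest in 56 and replicate 1 below the rest in 41, and the remaining kinds held 13 genes or fewer each. Replicate 3 was above the rest in 0 of them.

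Sex-linked genes differed between the arrays. Eif2s3y, a Y-linked translation factor, read 10.24, 7.86, 10.73 and 10.82, and Kdm5d, a Y-linked demethylase, 7.89, 6.30, 8.61 and 8.20. Uty had 6.14, 5.64, 6.65 and 6.33. All 3 were detected on every array and lowest on replicate 2. Xist, the RNA that silences an X chromosome in female cells, was also detected on every array by all 4 probes. The brightest Xist probe read 9.99, 10.18, 9.76 and 9.73, while the second read 7.82, 11.19, 8.49 and 9.74, and replicate 2 was the highest array for each of the 4 probes. Xist and Y-linked genes were thus detected together on each array, and their part in the other values that moved with replicate 2 was not tested.

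The promoters were also read over all genes. The CpG ratio, the number of CpG pairs over that predicted from the C and G content, had a median of 0.76 over the promoters of genes detected on all 4 arrays, 0.28 for genes detected on none and 0.11 for olfactory receptors. It was 0.82 in the brightest 10% and 0.59 in the dimmest. The detected platelet genes had a median of 0.21, macrophage genes 0.19, cartilage matrix genes 0.40 and cell division genes 0.94. A TATAAA word between 50 and 11 bases before the start was found in 1.23% of promoters of detected genes, 5.08% of those of genes detected on no array and 2.4% of all promoters.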

How the data were processed

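The authors deposited background-subtracted GenomeStudio intensities for each array with a detection score, and a table of log2 values of the same arrays (GenomeStudio version not stated). Rows of the deposited intensity files carry no probe name and were matched to probes through their values in the deposited log2 table. Detection p-values were taken as 1 minus the deposited score. Intensities of all 8 arrays were background-corrected and quantile normalized with neqc (limma 3.58.1, R 4.3.3, offset 16), so the null arrays shaped the common distribution but entered no comparison. A gene was read by the probe of highest mean level. No test between groups was run, Dixon's test for a single array apart from the rest served only to pick results for a closer look, and the number of arrays limits the precision. The gene lists were chosen with earlier results of these data known. Named genes were Bapx1 and the given markers, the 20 brightest, the 20 of largest SD, the 10 of smallest SD in the upper range of brightness, sex-linked genes and, per list, the brightest detected members and those detected on no array. Listed genes without a probe were not analysed here. The calculation was tested on simulated data, and the alternatives tried are given in the closing section.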

Additional observations from a re-analysis of the deposited data

Results flagged for a closer look

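In 18 of 298 screened results 1 array lay far from the other 3, by the gap to its nearest neighbour over the whole range (Dixon's test, 95% level). Chance flags about 1 in 20 groups, and over all 9748 detected genes 526 (5.40%) passed. Among cartilage and limb genes these were Sox9 (0.901, replicate 2 higher), Sox5 (0.860, replicate 1 lower), Osr2 (0.835, replicate 2 higher) and Fgfr2 (0.855, replicate 4 lower). Among other detected genes they were Rbbp7 (0.885, replicate 4 lower), Rpl9 (0.924, replicate 4 lower), Ubb-ps (0.876, replicate 4 higher), Rag1 (0.906, replicate 4 higher), Cenpa (0.842, replicate 3 higher), Map2 (0.966, replicate 3 lower) and Ttc3 (1.0, replicate 4 higher, with the other 3 readings identical at 13.54). The rest were detected on no array, namely Ptprc (0.935), Egr2 (0.871), Elavl3 (0.869), Bmp2 (0.845) and Ibsp (0.833) with replicate 4 higher, Erg (0.871) with replicate 2 higher and Tgfb1 (0.885) with replicate 2 lower.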

How the results depend on the processing

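The 9748 genes detected on all 4 arrays became 9026 at a detection p under 0.01, 10359 with detection on at least 3 arrays, 9764 with any probe of a gene and 9830 to 10006 with 1 array left out. Of 315 lineage genes 159 were detected, against 142, 178 and 159 under the same settings and 162 to 166 with 1 array left out. The median brightness percentile of the 5 marker genes was 97.7, and 97.5 to 97.9 with 1 array left out. The spread depended most on the processing. The median SD of 0.204 was 0.205 with the wildtype arrays normalized alone, 0.754 after scaling by the median absolute deviation (the scaling named in the study's methods), 0.287 in the deposited log2 table, 0.174 with an offset of 50, 0.166 over all probes and 0.156 to 0.209 with 1 array left out, the lowest being without replicate 4. Why the median SD was lowest without replicate 4 was not tested. Leaving Tcf4 out of the connective tissue list, chosen after seeing the data, gave 13 detected genes in place of 14. Scaling by the median absolute deviation moved the median of detected genes by -0.56, -0.36, -0.16 and 1.05 on replicates 1 to 4. Genes with an SD above 1 numbered 44, and 2299, 76 and 23 under that scaling, in the deposited table and with an offset of 50, and 81 without replicate 3. Probes near background give no level. No paired analysis was possible because only 1 group was described and no groups were compared.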
